A study of Homo sapiens with 6 samples.

Results

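The genes described are 10 AP-1 and immediate early genes of HT29 cells, an established human colorectal adenocarcinoma line. They were chosen by symbol (JUN, JUNB, JUND, FOS, FOSL1, FOSL2, ATF3, KLF6, IER2 and IER3) from the 58978 genes of the count table, and all 10 were found and passed the filter on low counts. RNA-seq libraries came from cells with a short hairpin RNA against FITM2 (shFITM2, 3 libraries, genotype labelled FITM2 knockdown) and from cells with a control hairpin (shCTRL, 3 libraries, genotype labelled WT). Both groups were grown in serum-containing medium and are labelled untreated, and no label says how the hairpins were delivered, whether the cells are 1 clone, or whether the replicates came from separate cultures. The p-values therefore set the group difference against the variation among these 6 libraries within their groups, and that variation may be technical.

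AP-1 is a transcription factor made of pairs of basic leucine zipper proteins, in which a JUN protein joins another JUN protein or a FOS or ATF protein and binds DNA. Immediate early genes are switched on within minutes of growth factor or stress signals without new protein synthesis, mostly through MAP kinases that act on factors already sitting at their promoters, and many of their mRNAs decay fast. In intestinal epithelium and colorectal tumours AP-1 works downstream of RAS and MAP kinase signalling and of Wnt signalling. FITM2, the targeted gene, encodes an endoplasmic reticulum membrane protein needed for lipid droplet formation.

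Promoters of the JUN family and of FOSL2 are shown because JUN, JUNB and FOSL2 passed the test and JUND is the remaining JUN gene. Each window runs from 250 bases before to 50 after the RefSeq start (RefSeq, GRCh38.p14), and capitals mark a match to 1 of 4 motifs: the cyclic AMP response element TGACGTCA, the AP-1 element TGANTCA, the CArG box bound by serum response factor, and the TATA box TATAAA, searched on both strands. The windows are chr1:58783998-58784297 (minus strand), chr19:12791236-12791535 (plus strand), chr19:18281573-18281872 (minus strand) and chr2:28392608-28392907 (plus strand).
JUN: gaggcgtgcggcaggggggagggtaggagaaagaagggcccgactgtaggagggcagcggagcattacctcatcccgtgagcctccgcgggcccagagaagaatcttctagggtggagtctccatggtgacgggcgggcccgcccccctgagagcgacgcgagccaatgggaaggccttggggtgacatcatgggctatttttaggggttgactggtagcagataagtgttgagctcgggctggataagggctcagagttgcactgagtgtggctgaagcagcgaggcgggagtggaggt
JUNB: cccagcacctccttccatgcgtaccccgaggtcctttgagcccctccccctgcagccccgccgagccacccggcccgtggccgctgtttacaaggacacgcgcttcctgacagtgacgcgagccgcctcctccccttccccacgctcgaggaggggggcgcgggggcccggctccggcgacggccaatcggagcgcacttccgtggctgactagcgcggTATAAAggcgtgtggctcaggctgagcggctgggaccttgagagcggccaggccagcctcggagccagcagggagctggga
JUND: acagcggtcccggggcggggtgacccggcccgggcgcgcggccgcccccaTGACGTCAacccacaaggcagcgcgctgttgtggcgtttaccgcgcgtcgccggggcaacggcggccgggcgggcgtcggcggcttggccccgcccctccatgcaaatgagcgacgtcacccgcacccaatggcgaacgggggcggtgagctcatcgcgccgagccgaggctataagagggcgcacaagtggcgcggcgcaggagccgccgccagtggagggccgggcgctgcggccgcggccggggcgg
FOSL2: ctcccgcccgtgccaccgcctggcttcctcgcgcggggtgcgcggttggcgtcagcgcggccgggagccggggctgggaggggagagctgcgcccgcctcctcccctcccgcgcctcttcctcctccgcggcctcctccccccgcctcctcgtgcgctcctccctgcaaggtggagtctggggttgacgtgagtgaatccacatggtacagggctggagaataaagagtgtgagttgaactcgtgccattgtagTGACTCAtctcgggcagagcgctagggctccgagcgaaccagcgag
The JUND window held 1 cyclic AMP response element, which begins 200 bases before the start, and the FOSL2 window 1 AP-1 element, which begins at base 5 after the start. The JUNB window held a TATA box that begins 31 bases before the start. The JUN window held no match to these letters. The RefSeq starts of JUN and FOSL2 lie inside the genes as the count table places them. RefSeq windows were matched for 8 of the 10 genes, all but FOSL1 and IER3. Only the first window listed for each gene was searched, so any other start of a gene was not covered. Among the 4 not printed, the FOS window held a TATA box at base −33 and those of ATF3, KLF6 and IER2 held no match. Of 34943 RefSeq promoter windows, 1.84% held the cyclic AMP response element, 7.72% the AP-1 element, 1.3% the CArG box and 11.6% the TATA box. The JUND window had a GC content of 77.0%, against a median of 58.7% over all windows.

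The libraries held 16964075 to 18855731 counts. Levels are given as CPM, the count of a gene scaled to a common library total with TMM factors. FITM2 mRNA was at 4.83, 5.98 and 4.95 CPM in shFITM2, against 13.2, 10.6 and 10.4 CPM in shCTRL (log2 fold change −1.12 ± 0.157 SE, adjusted p = 0.000242). This and every adjusted p that follows, unless named otherwise, is from edgeR's quasi-likelihood F-test, Benjamini-Hochberg adjusted over all genes tested, and a gene is said to be called, to have risen or to have fallen at an adjusted p under 0.05. Fold changes over all genes followed the GC content of the transcript, with a Spearman correlation of 0.744 (genes are not independent, and no p is given). For each 10 points of GC, log2 levels changed by 0.26, 0.23 and 0.18 in the shFITM2 libraries, against −0.27, −0.34 and −0.06 in shCTRL, so that shCTRL replicate 3 lay between the groups. Each result is therefore given from the uncorrected fit and from a GC-corrected fit, which takes out the smooth GC trend of each library and, with it, any real expression change that runs along GC. The members had a median transcript GC of 57.6%, against 48.7% over all tested genes. All 10 colon epithelium markers had reads in every library (summed level 13900 to 14600 CPM in shFITM2 and 10200 to 12100 in shCTRL). Of these, 7 were called higher and 1 lower, beside 24.2% and 24.5% of all tested genes. After GC correction 4 were called higher and 2 lower, beside 11.8% and 17.4%. The keratin gene KRT8 averaged 8384 CPM in shFITM2 and 6142 in shCTRL. The genes of the intestinal factors CDX1 (0.452 CPM in shFITM2 and 0.841 in shCTRL) and CDX2 (1.72 CPM in shFITM2 and 0.818 in shCTRL) were low. CDX1 was not called in the uncorrected fit and was called lower after GC correction (−1.56, adjusted p = 0.0299). CDX2 was called higher in the uncorrected fit and was not called after GC correction (0.71, adjusted p = 0.134). Of 6 blood cell markers, 2 had reads in every library (887 to 923 CPM in shFITM2 and 770 to 909 in shCTRL), nearly all of them from LYZ, and HBB was at 0. Of 6 fibroblast and endothelial markers, 3 did (1.95 to 2.14 CPM in shFITM2 and 1.64 to 3.32 CPM in shCTRL), and COL1A2 was at 0. Mitochondrially encoded genes took 6.82% to 7.30% of counts in shFITM2 and 7.98% to 9.21% in shCTRL. The part of the marker and mitochondrial shifts in the results was not tested.

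The 4 members called higher in shFITM2 cells were the AP-1 genes JUN, JUNB and FOSL2 and the immediate early gene IER2. JUNB had the highest log2 fold change in the uncorrected fit with all libraries, and stood at 58.5 ± 2.12 CPM in shFITM2 against 26.9 ± 2.01 CPM in shCTRL (SD, n = 3 per group). After GC correction JUN had the highest, and without shCTRL replicate 3 JUND did. No member was called lower, and all 10 had a log2 fold change above 0. After GC correction, JUNB and FOSL2 were still called higher, KLF6 joined them, and IER3 was called lower.
These counts stand beside a background in which 48.7% of the 14809 genes tested were called, 24.2% of all tested genes as higher and 24.5% as lower. The corrected fit called 29.2% of 14635 genes, 11.8% as higher and 17.4% as lower, against 3 members higher and 1 lower. The median log2 fold change of the members was 0.45, against −0.0002 over all tested genes, and 0.09 after GC correction, against −0.03. In 6 members every shFITM2 library lay above every shCTRL library, which held for 29.1% of all genes, and after GC adjustment in 4, against 18.7%. RNA of the whole culture was measured, so a change in every cell and a change in the share of cells that carry an mRNA cannot be told apart.
shCTRL replicate 3 was the highest shCTRL library for 7 of the 10 members. The share of all genes for which this held was not counted, so it is not shown to be particular to the members. Without shCTRL replicate 3, 8 members were called higher (all but ATF3 and KLF6). In that fit 60.4% of all genes were called, 30.5% higher and 29.9% lower. In the GC-corrected fit without it, JUN, JUNB, FOS, FOSL2 and KLF6 were called higher and IER2 and IER3 lower, where 38.3% of all genes were called, 16.1% higher and 22.2% lower.

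**Figure D1:**
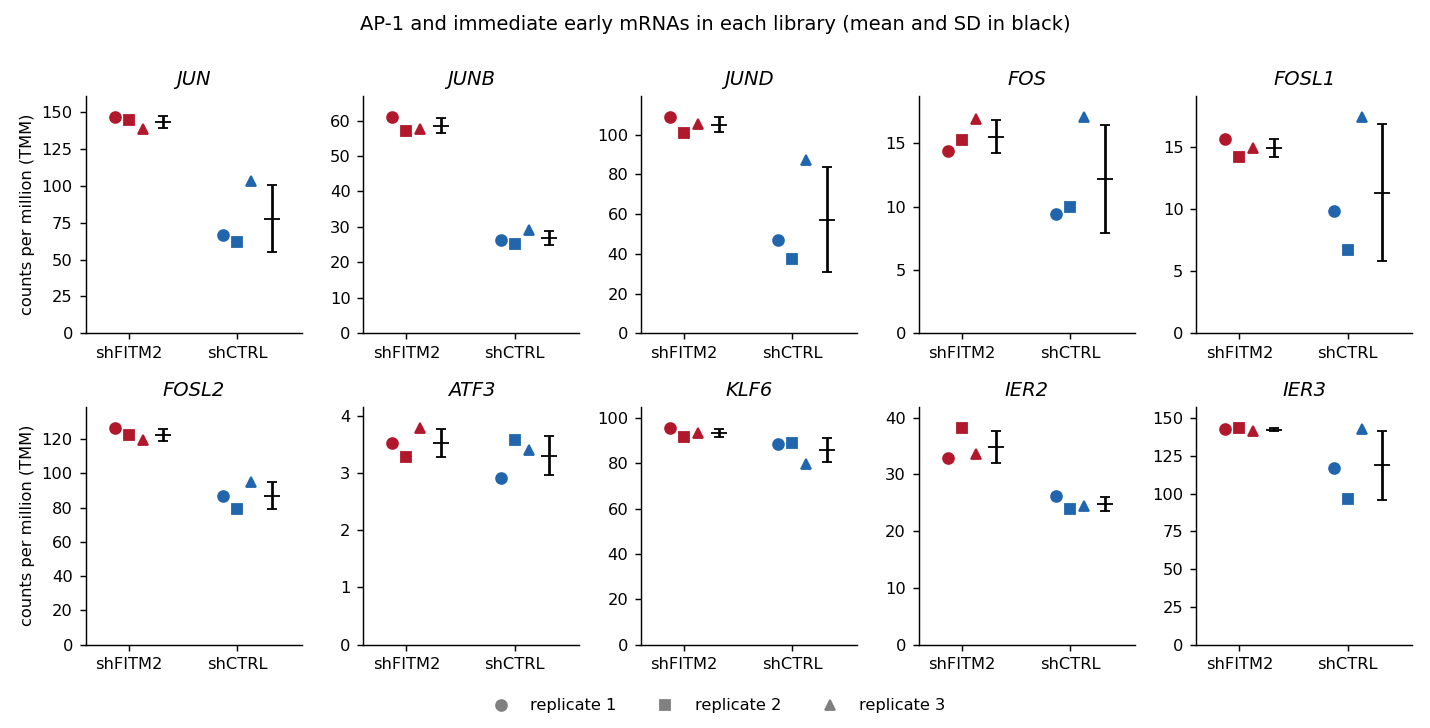
CPM (TMM-scaled, vertical axes) of each member in the 3 shFITM2 libraries (red) and the 3 shCTRL libraries (blue), marked by replicate number, with mean and SD in black on linear axes from 0. JUN, JUNB, JUND, FOSL2, KLF6 and IER2 have no overlap between the groups. Among the shCTRL libraries, replicate 3 (triangle) is the highest for JUN, JUNB, JUND, FOS, FOSL1, FOSL2 and IER3.

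JUN, the founding member of the family and a target of the JNK kinases, lies on chromosome 1 (58780788 to 58784327, minus strand, GRCh38; gene ENSG00000177606) as a gene of 1 exon with 56.7% GC. It had 147, 145 and 139 CPM in shFITM2, against 67.0, 62.1 and 104 CPM in shCTRL. The groups do not overlap, but shCTRL replicate 3 lies about midway between the other shCTRL libraries and shFITM2. The log2 fold change was 0.89 ± 0.188 (SE; adjusted p = 0.00778). After GC correction it was 0.52 ± 0.149 and missed the threshold (adjusted p = 0.052), while the GC-adjusted levels of 125 to 127 CPM in shFITM2 stayed above the 75.3 to 109 CPM in shCTRL. After GC correction and without shCTRL replicate 3 the log2 fold change was 0.71 (adjusted p = 3.21e-16). With any other single library left out, JUN was not called after GC correction (log2 fold change down to 0.42, adjusted p up to 0.115).

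JUNB, often a brake on JUN-driven transcription, is a single-exon gene on chromosome 19 (12791496 to 12793315, plus strand; ENSG00000171223) with 64.9% GC. Its levels were 60.9, 57.0 and 57.6 CPM in shFITM2, against 26.2, 25.3 and 29.1 CPM in shCTRL. Here shCTRL replicate 3 sat close to the other shCTRL libraries. JUNB rose with a log2 fold change of 1.12 ± 0.0871 (adjusted p = 2.08e-05) and of 0.36 ± 0.0862 after GC correction (adjusted p = 0.00543). The call held without any 1 library in both fits (0.25 to 0.43 after GC correction). The whole of JUNB lies inside HOOK2, a gene of the other strand, and the counting may have mixed their reads. HOOK2 averaged 43.5 ± 2.08 CPM in shFITM2 and 25.3 ± 1.51 CPM in shCTRL, a log2 fold change of 0.78, and 0.15 after GC correction (adjusted p = 8.54e-05 and 0.261). Its part in the JUNB result was not tested.

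JUND, the JUN gene least tied to acute stimulation, is a single-exon gene on chromosome 19 (18279760 to 18281622, minus strand; ENSG00000130522) and, at 69.7%, has the highest GC content of the 10. It had 109, 101 and 106 CPM in shFITM2, against 47.1, 37.6 and 87.2 CPM in shCTRL. The groups do not overlap, and shCTRL replicate 3 is nearer to shFITM2 than to the other shCTRL libraries. The log2 fold change of 0.88 ± 0.331 was not called (adjusted p = 0.0825). Without shCTRL replicate 3, the shCTRL library nearest to shFITM2, it was 1.31 (adjusted p = 1.56e-16), where 60.4% of all genes were called. After GC correction the log2 fold change was −0.024 ± 0.078 with all libraries (adjusted p = 0.856), and 0.083 and not called without shCTRL replicate 3. The GC-adjusted levels overlapped, at 72.2 to 78.2 CPM in shFITM2 and 67.3 to 85.8 CPM in shCTRL.

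**Figure D2:**
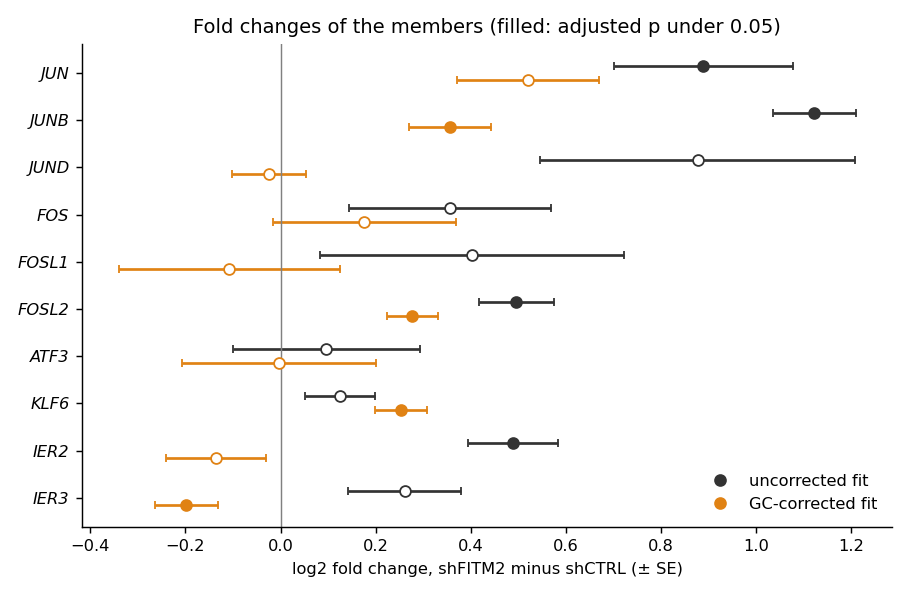
Log2 fold change (shFITM2 minus shCTRL, horizontal axis, ± SE) of each member in the uncorrected fit (black) and in the GC-corrected fit (orange); filled points have an adjusted p under 0.05. JUNB and FOSL2 are filled in both fits, and JUND runs from 0.88 before to −0.024 after the correction.

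FOSL2, which encodes FRA-2, a FOS protein of resting as well as stimulated cells, was the one FOS gene called. It lies on chromosome 2 (28392448 to 28417312, plus strand; ENSG00000075426) and has 53.3% GC. FOSL2 had 126, 122 and 119 CPM in shFITM2, against 87.0, 79.0 and 94.8 CPM in shCTRL, with no overlap. It rose by 0.50 ± 0.0794 on the log2 scale (adjusted p = 0.000503), and by 0.28 ± 0.0538 after GC correction (adjusted p = 0.00118). Both calls held without any 1 library.

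FOS, the classic serum- and ERK-responsive partner of JUN, lies on chromosome 14 (75278774 to 75282230, plus strand; ENSG00000170345). It had 14.4, 15.3 and 16.9 CPM in shFITM2, against 9.43, 10.0 and 17.1 CPM in shCTRL, the highest of the 6 being shCTRL replicate 3. The log2 fold change was 0.36 ± 0.213 (adjusted p = 0.197) and 0.18 ± 0.192 after GC correction (adjusted p = 0.55). Without shCTRL replicate 3 it was called in both fits, at 0.68 and 0.46 (adjusted p = 2.92e-05 and 0.00375).
FOSL1, which encodes FRA-1, a FOS protein that accumulates under sustained ERK signalling in carcinoma cells, lies on chromosome 11 (65892049 to 65900573, minus strand; ENSG00000175592). It had 15.6, 14.2 and 14.9 CPM in shFITM2, against 9.86, 6.71 and 17.4 CPM in shCTRL. As for FOS, shCTRL replicate 3 was above every shFITM2 library and the other shCTRL libraries were below. The log2 fold change was 0.40 ± 0.319 (adjusted p = 0.339), and −0.11 ± 0.232 after GC correction (adjusted p = 0.782). Without shCTRL replicate 3 it was 0.84 and called (adjusted p = 3.93e-06), but 0.21 and not called when GC was corrected as well (adjusted p = 0.246).

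ATF3, a stress-induced partner that often represses, lies on chromosome 1 (212565334 to 212620777, plus strand; ENSG00000162772) and was the lowest member, with 55 to 66 reads per library. It had 3.51, 3.28 and 3.77 CPM in shFITM2, against 2.91, 3.57 and 3.40 CPM in shCTRL. The groups overlap, and the log2 fold change was 0.10 ± 0.197 (adjusted p = 0.709) and −0.0028 ± 0.204 after GC correction (adjusted p = 0.994). With so few reads a small change of ATF3 may not have been detectable.
KLF6, a zinc finger factor with growth-restraining activity in colon cells, is on chromosome 10 (3775996 to 3785281, minus strand; ENSG00000067082) and had the lowest GC content, 45.9%. It had 95.4, 91.7 and 93.4 CPM in shFITM2, against 88.5, 89.1 and 79.5 CPM in shCTRL. The groups do not overlap but are close. Its log2 fold change was 0.13 ± 0.0731 (adjusted p = 0.178) and 0.25 ± 0.0544 after GC correction, where it was called (adjusted p = 0.0025). Of the members, KLF6 alone had a larger fold change after GC correction than before it.

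IER2, a nuclear protein induced by serum and growth factors, lies on chromosome 19 (13150415 to 13154908, plus strand; ENSG00000160888) and has 61.7% GC. It had 32.9, 38.1 and 33.6 CPM in shFITM2, against 26.2, 23.9 and 24.5 CPM in shCTRL, without overlap. IER2 rose by 0.49 ± 0.0949 (adjusted p = 0.00152). The call was lost and the sign turned after GC correction, at −0.14 ± 0.106 (adjusted p = 0.375).
IER3, an inhibitor of apoptosis induced by NF-kB and stress, lies on chromosome 6 (30743199 to 30744554, minus strand; ENSG00000137331) with 58.5% GC. It had 143, 143 and 141 CPM in shFITM2, against 117, 96.8 and 143 CPM in shCTRL. The shFITM2 libraries lie close together, and shCTRL replicate 3 reached their level. The log2 fold change was 0.26 ± 0.119 (adjusted p = 0.0972). After GC correction IER3 was called lower, at −0.20 ± 0.0669 (adjusted p = 0.0382), although the adjusted levels overlapped, with 118 to 124 CPM in shFITM2 and 123 to 151 CPM in shCTRL. That call was lost without shFITM2 replicate 1, 2 or 3 or shCTRL replicate 1 (adjusted p = 0.152, 0.117, 0.087 and 0.141).

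The members span GC contents from 45.9% to 69.7%, and their fold changes were set beside those of genes with like GC. Genes were divided by transcript GC into 10 bins of like size, whose median log2 fold change ran from −0.47 in the lowest bin to 0.71 in the highest. Of the 10 members, 7 lay above the median of their bin: JUN by 0.53, JUNB by 0.42, KLF6 by 0.34, FOSL2 by 0.29, JUND by 0.17, FOS by 0.15 and ATF3 by 0.06. The difference from the bin median was −0.24 for IER3, −0.10 for FOSL1 and −0.011 for IER2.

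**Figure D3:**
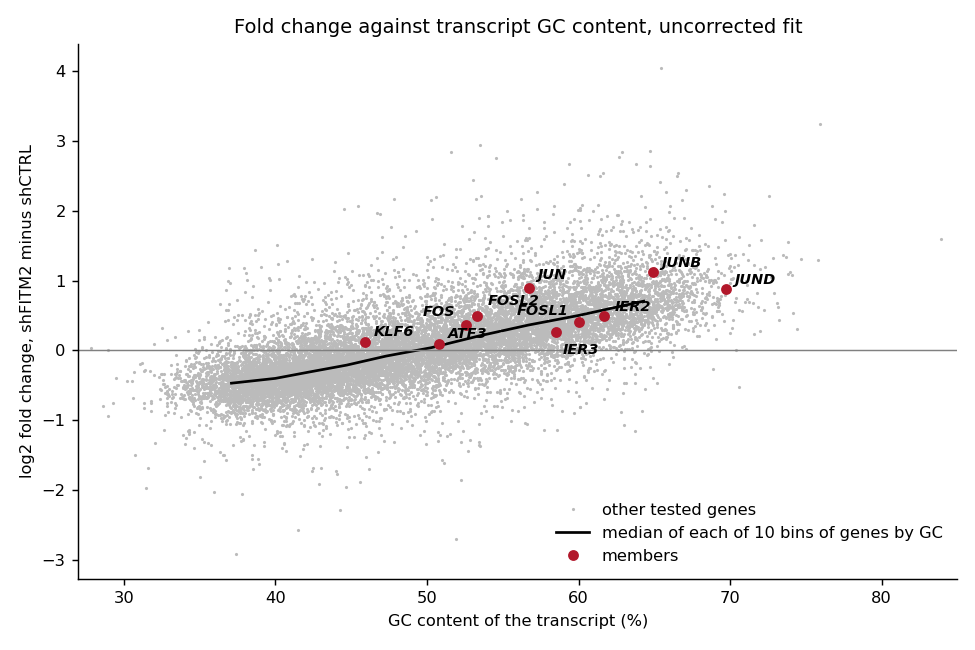
Log2 fold change (shFITM2 minus shCTRL, uncorrected fit) of every tested gene with a GC value against the GC content of its transcript (%), with the members in red and the median of each of 10 bins of genes as a line. The line climbs from −0.47 to 0.71; JUN, JUNB, FOSL2 and KLF6 stand above it by 0.29 to 0.53, while IER2 lies close to it and IER3 below it.

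Since different genes are compared only per length, levels were also set as CPM divided by gene length in kilobases (RPKM). In shFITM2 the order was IER3 (105 ± 0.726 RPKM, SD, n = 3), JUND (56.4 ± 2.14), JUN (40.5 ± 1.15), JUNB (32.1 ± 1.2), FOSL2 (17.1 ± 0.483), KLF6 (15.2 ± 0.3), IER2 (11.4 ± 0.929), FOSL1 (7.89 ± 0.383), FOS (4.8 ± 0.398) and ATF3 (0.872 ± 0.0615). No neighbours in that order overlapped between libraries. In shCTRL the levels were 87.7 ± 17 RPKM for IER3, 30.8 ± 14.1 for JUND, 21.9 ± 6.41 for JUN, 14.8 ± 1.1 for JUNB, 14.0 ± 0.873 for KLF6 and 12.2 ± 1.11 for FOSL2, then 8.08 ± 0.392 for IER2, 5.99 ± 2.9 for FOSL1, 3.76 ± 1.31 for FOS and 0.816 ± 0.0843 for ATF3. There JUND and JUN, JUNB and KLF6, KLF6 and FOSL2, IER2 and FOSL1, and FOSL1 and FOS overlapped. Dividing by the length of 1 annotated transcript instead placed KLF6 (20.1 RPKM) above FOSL2 (18.3 RPKM) in shFITM2.

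**Figure D4:**
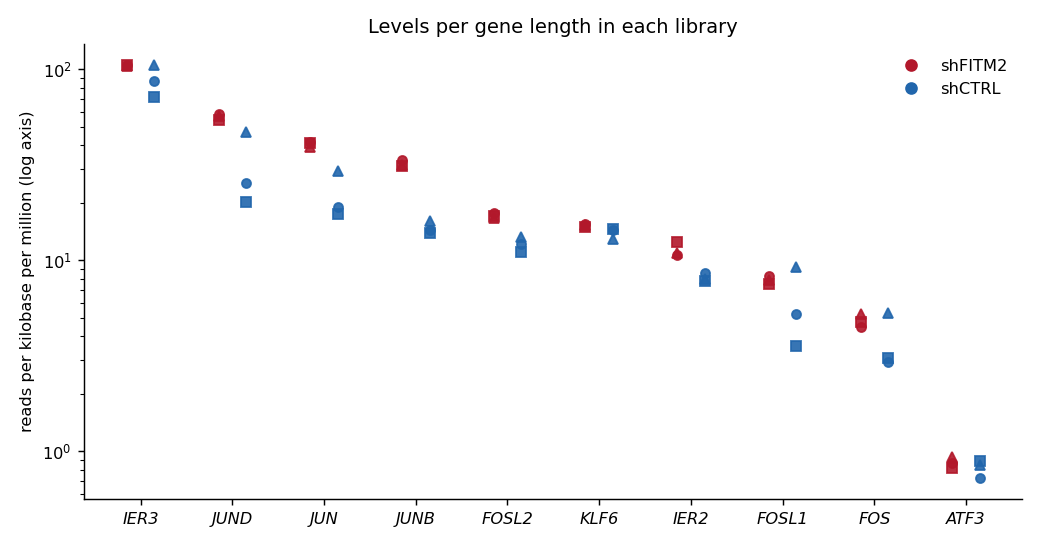
RPKM by gene length (log axis) of each member in the 3 shFITM2 libraries (red, left of each pair) and the 3 shCTRL libraries (blue), ordered by the shFITM2 mean. Levels run from 105 RPKM for IER3 to 0.872 RPKM for ATF3 in shFITM2, and the shCTRL libraries spread widest for JUND, FOSL1 and FOS.

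Summed over JUN, JUNB and JUND, JUN family mRNA was 133, 126 and 128 RPKM in shFITM2, against 58.6, 51.6 and 92.1 RPKM in shCTRL. The FOS family sum (FOS, FOSL1 and FOSL2) was 30.3, 29.3 and 29.8 RPKM in shFITM2, against 20.3, 17.7 and 27.7 RPKM in shCTRL. Neither sum overlapped between the groups, and for each the exact two-sided permutation p was 0.1 (log2 difference 0.98 for the JUN family and 0.47 for the FOS family). After GC adjustment the JUN family sum was 100.1, 98.5 and 102.7 RPKM in shFITM2, against 82.0, 78.6 and 93.3 RPKM in shCTRL, still without overlap (log2 difference 0.25, exact permutation p = 0.1). The adjusted FOS family sum was 26.9, 26.5 and 27.4 RPKM in shFITM2, against 22.9, 20.5 and 28.7 RPKM in shCTRL, with overlap (log2 difference 0.18, exact permutation p = 0.4). Unadjusted, the JUN family sum was 4.33 ± 0.0593 times the FOS family sum in shFITM2 and 3.04 ± 0.241 times in shCTRL. This ratio did not overlap between the groups. Its exact two-sided permutation p was 0.1, the smallest that 3 against 3 libraries allow (adjusted p = 0.3 over the 9 sums, ratios and shares tested). After GC adjustment the ratio was 3.73 ± 0.0095 in shFITM2 and 3.55 ± 0.298 in shCTRL, with overlap (exact permutation p = 0.4; adjusted p = 0.6).

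Within the families, the shares of reads per length overlapped between the groups for each gene. JUND was 43.7% ± 0.793 of JUN family reads per length in shFITM2 and 44.3% ± 5.96 in shCTRL (SD, n = 3; exact two-sided permutation p = 0.9, adjusted p = 1.0). JUN held 31.4% ± 0.861 in shFITM2 and 32.7% ± 1.15 in shCTRL, and JUNB 24.9% ± 0.183 in shFITM2 and 23.0% ± 4.97 in shCTRL. The JUNB share was 24.6% and 26.9% in shCTRL replicates 1 and 2 and 17.4% in replicate 3, where JUND reached 50.8%. After GC adjustment JUND was 40.0% ± 0.81 in shFITM2, below its 47.9% ± 1.75 in shCTRL, and JUN 35.4% ± 0.968 in shFITM2, above its 28.99% ± 3.41 in shCTRL (exact permutation p = 0.1 and adjusted p = 0.3 for both). FOSL2 was the main FOS mRNA, with 57.5% ± 1.31 of family reads per length in shFITM2 and 56.7% ± 7.82 in shCTRL. FOSL1 held 26.4% ± 0.821 in shFITM2 and 26.3% ± 6.57 in shCTRL (exact permutation p = 1.0), and FOS 16.1% ± 1.45 in shFITM2 and 16.9% ± 2.37 in shCTRL.

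Other genes of the AP-1 network were counted in lists. Beside each list stand the shares of all genes, 24.2% higher and 24.5% lower, and 11.8% and 17.4% after GC correction. Without shCTRL replicate 3 the uncorrected shares were 30.5% and 29.9%. Among 12 tested AP-1 relatives and dimer partners, 5 were higher and 1 lower (median log2 fold change 0.42). After GC correction 3 were higher and 1 lower (0.21). The 5 became 7 without shCTRL replicate 3 and 3 without any one of the other libraries. NFE2L1, a cap'n'collar factor that pairs with small MAF proteins, averaged 256 ± 2.65 CPM in shFITM2 and 162 ± 17.7 CPM in shCTRL (0.66, and 0.36 after GC correction). The small MAF genes MAFF (0.81 and 0.30) and MAFK (0.94 and 0.26) rose too. NFE2L1, MAFF and MAFK were called with and without the correction. Yet MAFF and MAFK overlap PLA2G6 and TMEM184A on the opposite strand, whose reads equal 40.3% and 73.8% of theirs. MAFG, another small MAF gene, added afterwards, was called higher before the correction and lower after it (0.20 and −0.21, adjusted p = 0.0324 and 0.016).

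Of 26 other immediate early genes tested, 12 were higher and 1 lower (median 0.42), and 5 and 3 after GC correction (0.15). The higher count ran from 8 to 16 without single libraries. The 16, with 2 lower, came without shCTRL replicate 3, where 30.5% of all genes were higher and 29.9% lower. PPP1R15A (GADD34), which restores translation after stress, averaged 61.0 ± 4.39 CPM in shFITM2 and 26.9 ± 4.66 CPM in shCTRL (log2 fold change 1.18, and 0.71 after GC correction), and the antiproliferative gene BTG2 58.2 ± 3.35 CPM in shFITM2 and 33.6 ± 3.54 CPM in shCTRL (0.79 and 0.72). Both were called in both fits, whereas ARC was called only before the correction (1.1 and 0.26; adjusted p = 0.000227 and 0.216). Picked after its values were seen, the orphan receptor gene NR4A2 had 9.61, 10.98 and 8.02 CPM in shFITM2, against 4.19, 4.11 and 5.51 CPM in shCTRL (1.05 and 1.09, called in both fits). Its relative NR4A1 was not called before the correction and was called lower after it (−0.07 and −0.54, adjusted p = 0.754 and 0.0153). Also picked afterwards, EGR1, a standard readout of ERK signalling, had 12.1, 11.7 and 12.0 CPM in shFITM2, against 9.11, 9.79 and 17.1 CPM in shCTRL, the last from replicate 3 as for FOS and FOSL1. Its log2 fold change was −0.003 (adjusted p = 0.993) and −0.31 after GC correction (adjusted p = 0.224).

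Of the 26 tested genes of the MAP kinase cascades that feed these promoters, 12 were higher and 11 lower (median 0.07), and 3 and 5 after GC correction (0.02). RPS6KA3, the RSK2 kinase downstream of ERK, averaged 126 ± 7.06 CPM in shFITM2 and 200 ± 21.6 CPM in shCTRL (−0.66 and −0.30, called in both fits). MAPK13, the epithelial p38 delta kinase, averaged 197 ± 4.48 CPM in shFITM2 and 145 ± 4.65 CPM in shCTRL (0.44 and 0.28, called in both fits). MAP2K3, a p38 activator, had 0.53 and 0.05, called only before the correction.
Of 13 factors that sit at immediate early promoters, 3 were higher and 5 lower (median −0.09), and 0 and 2 after GC correction (0.01). MRTFB, an actin-regulated coactivator of serum response factor, fell to 46.8 ± 2.05 CPM in shFITM2, against 75.5 ± 0.203 CPM in shCTRL (−0.69 and −0.49, called in both fits). Its relative MRTFA had 0.53 and −0.06 and MEF2D 0.51 and 0.12, both called only before the correction.

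Of 14 tested genes known as AP-1 targets, 5 were higher and 1 lower (median 0.15), and 4 and 3 after GC correction (0.08). Without shCTRL replicate 3 there were 3 lower, and the 4 became 2 without shFITM2 replicate 1 or 2. LAMB3, a laminin-332 chain, averaged 385 ± 18.7 CPM in shFITM2 and 191 ± 18.6 CPM in shCTRL (1.01 and 0.52, called in both fits). CCND1, the G1 cyclin, averaged 66.3 ± 2.01 CPM in shFITM2 and 96.2 ± 8.16 CPM in shCTRL (−0.54 and −0.61, called in both fits; LTO1 overlaps it on the opposite strand with reads equal to 36.9% of its own). HMOX1 had 0.69, and 0.25 after GC correction, where its call was lost (adjusted p = 0.0727).
Among 16 genes of AU-rich element mRNA binding and decay (named decay genes below), 3 were higher and 7 lower (median −0.20). After GC correction 5 were higher and 2 lower (0.01). This decay shortens the life of many immediate early mRNAs, but the list was not limited to genes that speed it. The 7 included ELAVL1 (adjusted p = 0.035). ZFP36 was counted with the other immediate early genes, where it was higher (adjusted p = 0.0437). Neither ELAVL1 nor ZFP36 was called after GC correction (adjusted p = 0.328 and 0.152). CNOT1, the scaffold of the CCR4-NOT deadenylase, fell to 342 ± 4.86 CPM in shFITM2, against 497 ± 15.1 CPM in shCTRL (−0.54 and −0.38), and the exonuclease gene XRN1 had −0.73 and −0.28, both called in both fits. CNOT6 had −0.48 and −0.09 and was called only before the correction.
Of 10 heat shock genes, another class of quickly induced stress genes, 3 were higher and 5 lower (median −0.10), and 1 and 6 after GC correction (−0.19). HSPH1 (−0.57 and −0.21) and HSP90AA1 (−0.51 and −0.36) fell and HSPA1A (0.88 and 0.36) rose in both fits. HSPA1A and HSPA1B are nearly identical, so reads may be split between them. HSPA1B (98.1 CPM in shFITM2 and 78.6 in shCTRL) was called higher before the correction and lower after it (0.32 and −0.16, adjusted p = 0.0078 and 0.0479).

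**Figure D5:**
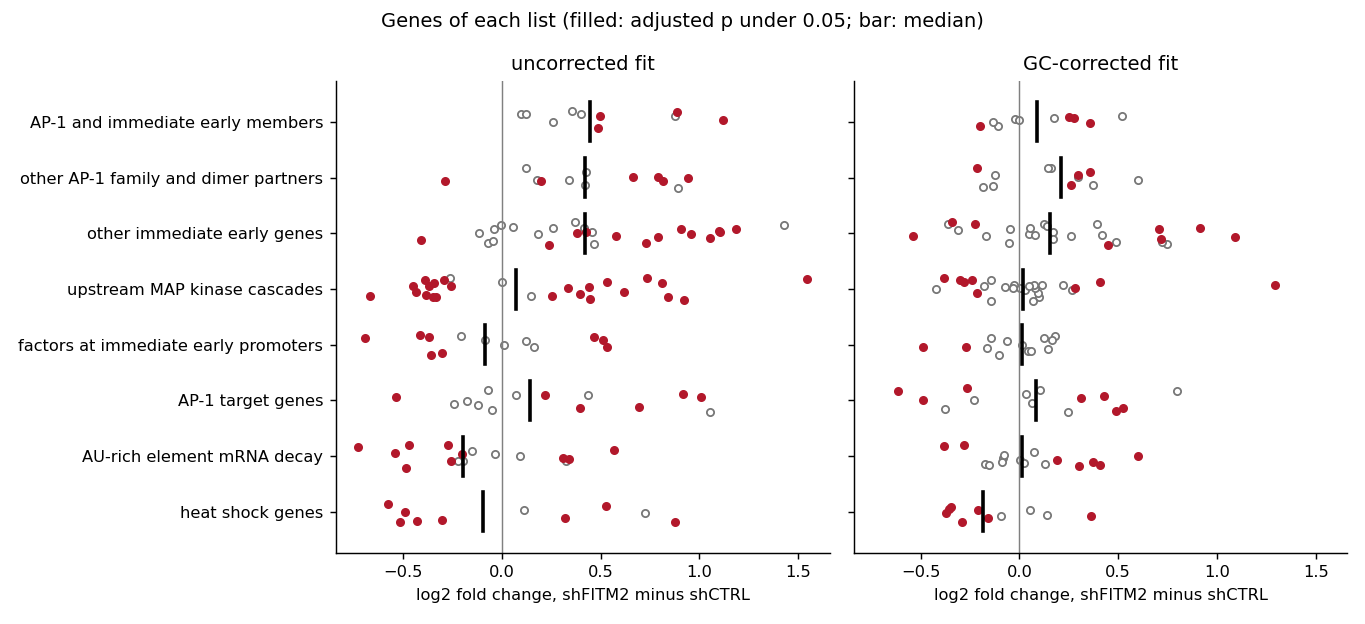
Log2 fold change (shFITM2 minus shCTRL, horizontal axis) of every tested gene with a GC value in the 8 lists, in the uncorrected fit (left) and in the GC-corrected fit (right); filled points have an adjusted p under 0.05 and black bars are medians. The median of the members falls at 0.45 on the left and 0.09 on the right, and that of the other immediate early genes at 0.42 and 0.15.

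Genes with the library pattern most like JUN and FOS were looked up among protein-coding genes with a mean of at least 5 CPM, by the mean absolute difference of centred log2 CPM over the 6 libraries. Among the 3 nearest to JUN were RALY, at 0.0166, and AGPAT2, at 0.029. RALY had 399, 396 and 385 CPM in shFITM2, against 187, 173 and 279 CPM in shCTRL, so it too had shCTRL replicate 3 between the groups. F12, RGCC and PEMT were nearest to FOS, at 0.0746, 0.0753 and 0.0813. RGCC had 34.7, 38.5 and 36.7 CPM in shFITM2, against 22.5, 24.4 and 36.8 CPM in shCTRL. The 6 libraries share the group difference and the GC trend, so the likeness is a description of these libraries.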

How the data were processed

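The authors deposited a single table of raw read counts per gene for the 6 libraries. Per the submitters' processing notes, HISAT2 2.0.5, StringTie 1.3.3b, featureCounts 1.5.0-p3, DESeq2 1.16.1 and hg19 were named, with no role given. The table's positions are on GRCh38: all 58735 genes with a GENCODE release 29 identifier have its position. The strand setting of the counting is not given in the sources used here. The deposited table also gives a gene length in bases, used for levels per kilobase.

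Library totals ran from 16964075 to 18855731 counts. Titles gave the groups and replicate numbers. The uncorrected fit was edgeR 4.0.16's robust quasi-likelihood F-test (limma 3.58.1, R 4.3.3) with group as the sole term, TMM, expression filter (minimum count 10, minimum total 15), Benjamini-Hochberg over all 14809 tested genes, called at an adjusted p under 0.05. The GC-corrected fit adds an offset per gene and library: the deviation of a library from the gene's mean log2 level, smoothed along GC by a spline with 6 degrees of freedom. GC came from a single GENCODE transcript of the gene, coding and longest where possible, and was known for 14635 genes (98.8%), which this fit tested. Family shares had an exact two-sided permutation test over 20 arrangements. The fits were tested on simulated data. Alternatives were other normalizations, no filter, DESeq2 1.42.0 (Wald), voom weights in limma, an offset on GC and length, a replicate block and each library left out.

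The members, the gene lists and the GC offset were chosen with earlier results of these data known. From each list, up to 3 called genes with the smallest p were named; markers were not. For JUN and FOS the 3 genes of most similar pattern were looked up, of which 1 is not reported here. The TATA box and the shares of JUN, JUNB, FOS and FOSL2 were added after seeing the data. The family sums, their ratio and the comparison with GC bins were not among the planned results either.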

Additional observations from a re-analysis of the deposited data

How the results depend on the processing

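Of the 10 members, 4 were called in the uncorrected fit. The count was 8 without shCTRL replicate 3 and 7 without it after GC correction. Over the single libraries left out the member count ran from 4 to 8, beside 36.2% to 60.4% of all genes. After GC correction it ran from 3 to 7, beside 19.2% to 38.3% of all genes. JUND was also called with the DESeq2 Wald test, limma-voom and the replicate block (0.88, 0.98 and 0.96, adjusted p = 0.0441, 0.00435 and 0.0275). Those fits called 46.4%, 50.1% and 45.4% of all genes. FOS and IER3 were called with no expression filter (0.37 and 0.27, adjusted p = 0.0264 and 0.00384), beside 25.4% of 28729 genes. The cause was not tested. Replicate numbers gave no pairing, since deviations of same-numbered libraries correlated at −0.041, −0.0066 and −0.065. The replicate block called 5 members, beside 45.4% of all genes. With GC correction as well it called 5, beside 28.6% of all genes, and JUN was the one gained (0.54, adjusted p = 0.0261). FITM2 kept its call without each single library (−1.22 to −0.997).

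The number of all genes called was 7205 uncorrected, 4274 after GC correction, 4224 with length corrected too and 4182 with the replicate block and GC correction. It ran from 5360 to 8950 with single libraries left out. With the GC correction as well it was 2809, 2922, 3089, 3270, 3713 and 5603 without shFITM2 replicates 1, 2 and 3 and shCTRL replicates 1, 2 and 3, in that order. Without single libraries, some list counts moved by over 1.5 times from the count of the same fit with all libraries. Those of AP-1 relatives before GC correction and of AP-1 targets are given above, and the others follow. Before GC correction the higher calls ran from 7 to 13 for MAP kinase genes, 2 to 5 for promoter factors and 3 to 5 for decay genes, and the lower calls from 1 to 2 for other immediate early genes, 3 to 5 for promoter factors and 4 to 10 for decay genes. After it the higher calls ran from 1 to 4 for AP-1 relatives, 5 to 9 for other immediate early genes, 1 to 5 for MAP kinase genes, 0 to 1 for promoter factors and 1 to 3 for heat shock genes, and the lower calls from 0 to 1 for AP-1 relatives, 2 to 4 for promoter factors and 1 to 3 for decay genes.

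Signs turned under the GC correction, which takes out the GC trend by construction. For JUND, FOSL1, ATF3, IER2 and IER3, in that order, the log2 fold changes were −0.024, −0.11, −0.0028, −0.14 and −0.20 after GC correction, −0.029, −0.12, −0.0019, −0.12 and −0.22 with length corrected too, and −0.014, −0.061, −0.0006, −0.13 and −0.19 with the replicate block and GC correction. The GC-corrected values without single libraries follow, in the library order just given. For JUND they were −0.017, 0.0023, −0.055, −0.043, −0.10 and 0.083. For FOSL1 they were −0.12, −0.068, −0.13, −0.15, −0.32 and 0.21. For ATF3 they were 0.0038, 0.044, −0.058, −0.086, 0.074 and 0.0074. For IER2 they were −0.074, −0.20, −0.14, −0.057, −0.090 and −0.25. For IER3 they were −0.18, −0.20, −0.21, −0.18, −0.28 and −0.13. JUN (0.42 to 1.15), JUNB (0.25 to 1.18), FOSL2 (0.24 to 0.56), FOS (0.028 to 0.68) and KLF6 (0.074 to 0.27) kept a positive sign with single libraries left out, before and after the correction. The JUND share difference of −0.657 percentage points ran from −3.29 to 2.58 without single libraries. The FOSL1 share difference of 0.106 points ran from −3.02 to 3.53, and was −4.14 after GC correction and −0.178 by raw reads. ATF3 had 55 to 66 reads per library, which limits its precision.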
